A study of Mus musculus with 12 samples.

Results

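The genes described here are 7 transcription factors outside the Hox clusters that mark position along the gut or the cell layer they work in: Cdx1 and Cdx2, Gata4 and Gata6, Onecut2, Mnx1 and Osr2. They were taken by symbol from the 54532 genes counted in 12 mouse colon libraries and were read beside the level of Hoxb13, a Hox gene of the hindmost gut, in the same libraries. The 7 genes had been picked because of how their levels differed between these libraries, so their levels, fold changes and relation to Hoxb13 are given as a description. Where a test over all genes called any of them, the call describes the values they were picked on and is no independent support. Of the 7 genes, 6 passed the filter on low counts and Onecut2 did not.

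Colon RNA came from male C57BL/6 mice aged 6 weeks that then had 1 week of adaptation, with 3 colonic tissues in each of 4 groups. The Con group had no DSS and is labelled untreated, and by the methods it and the DSS group were gavaged with vehicle. The DSS group drank 3% (w/v) dextran sulfate sodium, a polymer that injures the colon epithelium, for 5 days. The UA+DSS group had the same DSS and was gavaged daily for 7 days with 200 mg/kg of ursolic acid, a triterpenoid of plants, beginning 24 h before DSS (early ursolic acid). The DSS+UA group had DSS and the same dose of ursolic acid for 4 days, beginning 3 days after the change to DSS water (late ursolic acid). These days are those of the methods, and other parts of the study give other numbers of days for both ursolic acid groups. The stretch of colon that was taken is not given in the sources used here. Libraries carry the group name and the replicate number, so that DSS 2 stands for replicate 2 of the DSS group.

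Along the gut, the epithelium and the mesenchyme under it hold combinations of transcription factors that differ from stomach to rectum. The caudal homeobox proteins Cdx1 and Cdx2 set intestinal identity in the epithelium. In the adult mouse Cdx2 is known to be highest around the caecum and the first part of the colon and to decline toward the rectum, while Cdx1 stays high toward the rectum. Gata4 marks the upper small intestine, and Gata6 is found along the whole intestinal epithelium. Onecut2 is a cut homeodomain factor of the small intestine, liver and pancreas. Mnx1 is a homeodomain factor of motor neurons and pancreatic beta cells, and Osr2 is an odd-skipped zinc finger factor of embryonic mesenchyme. Hoxb13 is the hindmost gene of its cluster, known from the rectal end of the colon and from the prostate.

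Cdx2, Mnx1 and Hoxb13 share the homeobox, the coding stretch of the DNA-binding homeodomain, which is shown here because the account turns on how these genes stand to each other. The stretches below are from the GENCODE M21 transcripts (GRCm38) and run 5′ to 3′, with the codons of the conserved WFQNR-type core of the recognition helix in capitals. The Cdx2 stretch is that of residues 185 to 244 of 311, the Mnx1 stretch that of residues 241 to 300 of 404, and the Hoxb13 stretch that of residues 218 to 277 of 286.
Cdx2: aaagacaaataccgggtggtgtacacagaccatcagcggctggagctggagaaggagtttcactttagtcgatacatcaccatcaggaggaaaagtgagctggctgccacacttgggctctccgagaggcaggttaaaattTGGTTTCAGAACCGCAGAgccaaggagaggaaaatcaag
Mnx1: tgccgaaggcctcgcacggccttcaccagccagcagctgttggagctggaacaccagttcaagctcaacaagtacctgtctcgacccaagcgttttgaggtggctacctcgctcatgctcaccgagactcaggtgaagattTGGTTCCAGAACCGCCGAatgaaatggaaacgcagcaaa
Hoxb13: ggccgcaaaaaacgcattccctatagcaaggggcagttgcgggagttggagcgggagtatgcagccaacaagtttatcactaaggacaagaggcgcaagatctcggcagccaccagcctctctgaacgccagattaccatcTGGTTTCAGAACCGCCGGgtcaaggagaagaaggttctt
Over the 60 residues, Cdx2 had 26 in common with Hoxb13 and 26 with Mnx1, and Hoxb13 and Mnx1 had 23 in common. At the level of bases, 97 of 180 were shared by Cdx2 and Hoxb13 and 100 of 180 by Cdx2 and Mnx1.

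Gata4 binds DNA through zinc fingers, and 1 of them is shown to set it apart from the homeobox genes. The Gata4 coding sequence held 2 fingers of the GATA type. Capitals mark the codons of the cysteine residues that hold the zinc ion. The stretch is the last finger, residues 271 to 295 of 442.
Gata4: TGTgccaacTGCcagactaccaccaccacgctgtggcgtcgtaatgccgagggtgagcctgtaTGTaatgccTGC

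The unit of level was CPM, the reads of a gene per megaread of the TMM-scaled library, from libraries of 15566216 to 19498383 counts. A gene was called changed where edgeR's quasi-likelihood test gave a p adjusted by the Benjamini-Hochberg method under 0.05 over 17658 genes. Of the 12 libraries, 5 stood apart. They are named beside many of the results that they touch, and they also enter the group values where they are not named. DSS 2 and, at a lower level, DSS+UA 3 carried genes of the small intestine (Apoa1 at 785 and 166 CPM, with 3.62 CPM as the highest of the other 10 libraries). DSS 3 carried genes of the exocrine pancreas (Ctrb1 at 4280 CPM), and DSS 1 a gene of the prostate (Pbsn at 422 CPM, with 20.6 CPM in DSS+UA 3 and at most 0.0555 CPM elsewhere). Con 1 stood apart from Con 2 and Con 3 in Hoxb13 (542 CPM against 62.8 and 100.05 CPM). The summed level of 8 epithelial markers was 6386 to 17852 CPM over the 12 libraries, and that of 6 stomach markers 0.0625 to 0.665 CPM.

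Per kilobase of exon, the 7 genes spanned a wide range of mean level. Cdx1 stood highest at 231 CPM per kb and Cdx2 next at 82.3 CPM per kb, beside 88.5 CPM per kb for Hoxb13. Gata6 had 7.14 and Osr2 5.93 CPM per kb. Mnx1 had 0.551, Gata4 0.403 and Onecut2 0.0510 CPM per kb, and the genes of low mean level had few counts in most libraries.

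**Figure D1:**
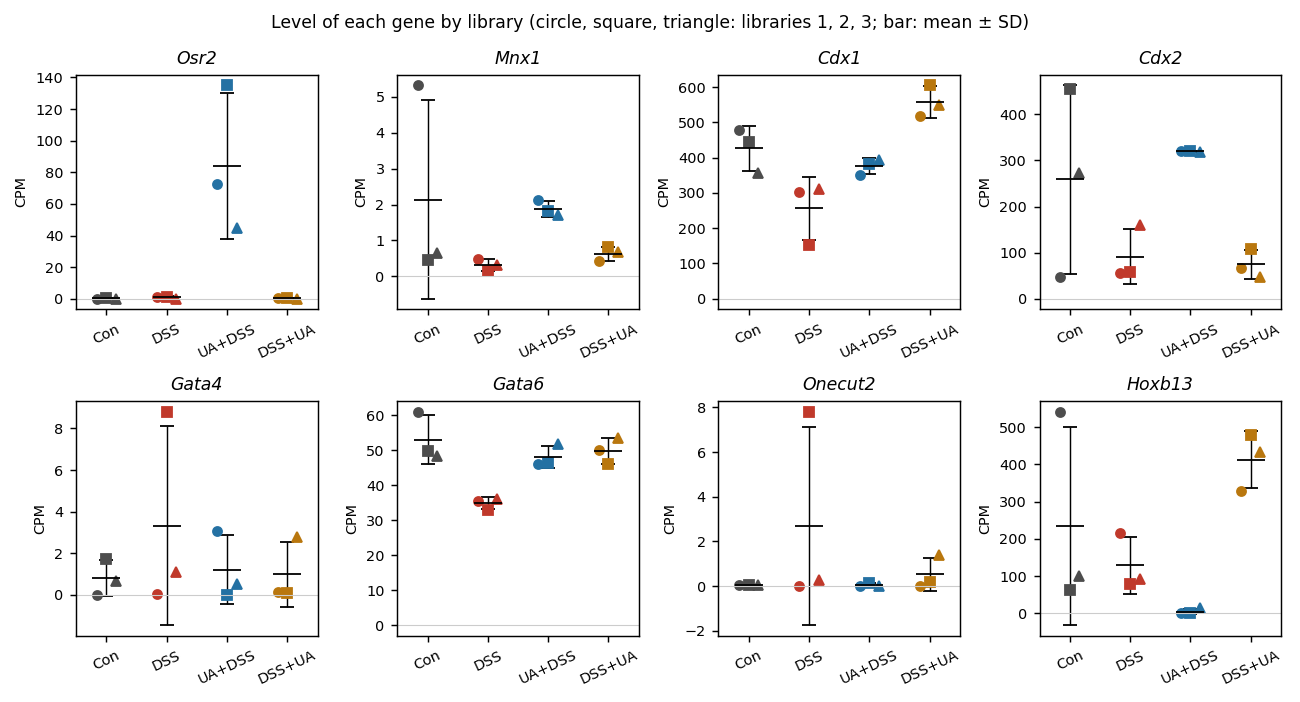
CPM of the 7 genes and of Hoxb13 (vertical axes, linear and separate for each gene) in the 3 libraries of each group, with horizontal bars for the mean and error bars for the SD. Osr2 lies at 45.0 to 135 CPM in UA+DSS and at or under 1.49 CPM in the other 9 libraries, while Cdx2 lies within 318 to 321 CPM in UA+DSS and spreads from 47.3 to 455 CPM in Con.

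Osr2 (ENSMUSG00000022330, GRCm38 15:35296098-35303305, plus strand) had its high values in the early ursolic acid group, with 852-fold between its highest and lowest library. It was at 72.7, 135 and 45.0 CPM in UA+DSS 1, 2 and 3. In the Con libraries it was at 0.207, 0.499 and 0.1604 CPM, in the DSS libraries at 1.49, 1.10 and 0.158 CPM, and in the DSS+UA libraries at 0.790, 0.495 and 0.166 CPM. The lowest UA+DSS library stood 30.2-fold over the highest of the other 9, so this group did not overlap any other. The counts behind these values were 4141 over the UA+DSS group against 16, 56 and 26 over the Con, DSS and DSS+UA groups.

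The means of Osr2 were 84.2 ± 46.1 CPM in UA+DSS, 0.917 ± 0.685 in DSS, 0.484 ± 0.312 in DSS+UA and 0.289 ± 0.184 in Con (SD, n = 3). The Con, DSS and DSS+UA libraries overlapped each other, and no order among these 3 groups can be read from them. The fitted log2 fold change of UA+DSS was 6.499 (SE 0.75) against DSS and 8.17 (SE 0.84) against Con, and that of DSS+UA against UA+DSS was -7.42 (SE 0.80). With Hoxb13 as a covariate in the same fit they were 4.93 (SE 0.97), 6.58 (SE 1.03) and -5.51 (SE 1.16). None of the 3 was then called, but that fit called 0 of all 17658 genes in each of these comparisons. Hoxb13 was lower in every UA+DSS library than in any other library, so the fit cannot part this group from Hoxb13. As a description of a gene picked on these values, Osr2 was the 1 gene of 17658 that edgeR called between UA+DSS and Con. It was not the only gene to differ by other measures. DESeq2 called 372 genes there, Osr2 among them, and 2132 genes had an unadjusted edgeR p under 0.05. The edgeR call of Osr2 was kept in 12 of 20 other settings of the analysis. Beside the fit with the covariate, it was lost when Con 1, Con 2, Con 3, UA+DSS 1, DSS+UA 1 or DSS+UA 2 was left out (log2 fold change 7.88 to 8.79) and when no filter was used.

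Markers of other cell types are given beside Osr2 by their summed level. The 6 fibroblast markers summed to 436 to 951 CPM in UA+DSS, 544 to 875 in Con, 1755 to 3353 in DSS and 569.8 to 1209 in DSS+UA. The 6 smooth muscle markers summed to 1125 to 2436 CPM in UA+DSS, 1094 to 3467 in Con, 661 to 1454 in DSS and 436 to 866 in DSS+UA, so that UA+DSS lay above DSS+UA, where 3 of 6 were called lower. Mesothelial markers summed to 2.18 to 2.50 CPM in UA+DSS, above Con (0.222 to 1.12) and below DSS (8.19 to 52.8) and DSS+UA (6.56 to 13.7). Neuronal and glial markers summed to 28.2 to 47 CPM in UA+DSS, 13.8 to 36.0 in Con, 38.7 to 49.0 in DSS and 13.6 to 38.2 in DSS+UA. The part of these cells in the level of Osr2 was not tested. In bulk tissue, fewer cells of a type and less RNA per cell cannot be told apart.

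Mnx1 (ENSMUSG00000001566, 5:29473034-29478470, minus strand) was a rare transcript with 1 high control library. It was at 5.33, 0.444 and 0.642 CPM in Con 1, 2 and 3, and at 0.481, 0.150 and 0.317 CPM in DSS 1, 2 and 3. It was at 2.12, 1.81 and 1.70 CPM in UA+DSS and at 0.421, 0.804 and 0.665 CPM in DSS+UA. The UA+DSS libraries lay close together, above all DSS and DSS+UA libraries and above Con 2 and Con 3, but under Con 1.

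The log2 fold change of Mnx1 was 2.54 (SE 0.86) in UA+DSS against DSS and -1.57 (SE 0.82) in DSS+UA against UA+DSS, neither of them called by edgeR. DESeq2 called the first, as did edgeR without Con 1, without Con 2 and in a fit of the 2 groups alone, and the second was called without Con 1 and in the 2-group fit. In DSS against Con it was -2.73 (SE 0.86), with overlapping groups (0.481 CPM in DSS 1 against 0.444 CPM in Con 2). Without Con 1 the last value was -0.77, and its call was lost in 12 of 19 other settings, among them the leaving out of any 1 of 9 libraries. DSS 3, the library with pancreas RNA, had 6 counts of Mnx1.

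Cdx1 (ENSMUSG00000024619, 18:61018862-61036199, minus strand) was the most abundant of the 7 genes and was lowest in DSS and highest in late ursolic acid. It was at 479, 445 and 356 CPM in Con and at 303, 153 and 312 CPM in DSS. It was at 352, 382 and 394 CPM in UA+DSS and at 517, 606 and 549 CPM in DSS+UA. The DSS+UA libraries lay above all 9 others and the DSS libraries below all 9 others, while Con and UA+DSS overlapped.

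In group order the means of Cdx1 were 557 ± 45.0 CPM in DSS+UA, 427 ± 63.5 in Con, 376 ± 22.1 in UA+DSS and 256 ± 89.0 in DSS (SD, n = 3). Its log2 fold change was -0.74 (SE 0.25) in DSS against Con and 1.12 (SE 0.25) in DSS+UA against DSS. Without DSS 2, the lowest library, the first was -0.48 and not called, and its call was lost in 16 of 20 other settings. The second lost its call in 6 of 20, among them without DSS+UA 2 and without DSS+UA 3 (1.01 and 1.15). The epithelial marker Epcam moved with it, at 774 to 1241 CPM in DSS and 1700 to 2201 CPM in Con. Per Epcam, Cdx1 was at 0.198 to 0.317 in DSS and at 0.202 to 0.272 in Con, so the groups overlapped on that scale. In DSS+UA Epcam was at 1360.5 to 2328 CPM and Cdx1 per Epcam at 0.260 to 0.380, which also overlapped DSS.

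Cdx2 (ENSMUSG00000029646, 5:147300805-147307270, minus strand) was even across the early ursolic acid group and split in the others. It was at 321, 321 and 318 CPM in UA+DSS 1, 2 and 3. In Con it was at 47.3, 455 and 274 CPM, so Con 1 was the lowest of all 12 libraries and Con 2 the highest. It was at 56.3, 57.9 and 160 CPM in DSS and at 67.0, 108 and 47.9 CPM in DSS+UA. The UA+DSS libraries lay above every DSS and DSS+UA library, and the Con libraries spanned the whole range.

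The mean of Cdx2 was 319.9 ± 1.31 CPM in UA+DSS, 259 ± 204 in Con, 91.5 ± 59.5 in DSS and 74.2 ± 30.5 in DSS+UA (SD, n = 3). Its log2 fold change was 1.81 (SE 0.68) in UA+DSS against DSS and -2.11 (SE 0.69) in DSS+UA against UA+DSS. Against Con it was -1.50 (SE 0.68) in DSS and -1.80 (SE 0.68) in DSS+UA. None of these was called by edgeR, although DESeq2 called UA+DSS against DSS, DSS+UA against UA+DSS and DSS+UA against Con. Without Con 1 the difference between DSS and Con was -1.996 and that between DSS+UA and Con -2.29, and both were then called.

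The 2 caudal factors did not move together, with a Pearson correlation of 0.030 over the 12 libraries on the log2 CPM scale. The ratio of Cdx2 to Cdx1 (CPM, not corrected for length) was 0.0988, 1.02 and 0.768 in Con 1, 2 and 3 and 0.186, 0.377 and 0.514 in DSS. It was 0.912, 0.839 and 0.807 in UA+DSS and 0.130, 0.178 and 0.0873 in DSS+UA. The 5 lowest ratios were those of the 3 DSS+UA libraries, Con 1 and DSS 1, which are also the 5 libraries with the highest Hoxb13. The ratio divides 2 epithelial genes of the same library. Per Epcam, Cdx2 was at 0.164 to 0.203 in UA+DSS and at 0.0258 to 0.0493 in DSS+UA, again without overlap.

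Gata6 (ENSMUSG00000005836, 18:11052064-11085635, plus strand) was the steadiest of the 7 genes, with 1.85-fold between its highest and lowest library. It was at 61.0, 49.7 and 48.3 CPM in Con, at 35.5, 32.9 and 36.1 CPM in DSS, at 46.1, 46.4 and 51.7 CPM in UA+DSS and at 50.1, 46.0 and 53.3 CPM in DSS+UA. The DSS libraries lay below the 9 others, which overlapped each other. The log2 fold change was -0.61 (SE 0.13) in DSS against Con, 0.46 (SE 0.13) in UA+DSS against DSS and 0.52 (SE 0.13) in DSS+UA against DSS. The first of these calls was kept in all 20 other settings, the second in 7 and the third in 4. The second was lost without any 1 of 8 libraries and the third without any 1 of 10. Per Epcam, Gata6 was at 0.0291 to 0.0425 in DSS, 0.0226 to 0.0347 in Con, 0.0237 to 0.0292 in UA+DSS and 0.0198 to 0.0368 in DSS+UA, so that on this scale each of the 3 other groups overlapped DSS and reached lower values. That reading depends on the marker. Epcam was at 774 to 1241 CPM in DSS and 1581 to 1956 CPM in UA+DSS. Krt18, another epithelial marker, overlapped there (330 to 363 and 309 to 443 CPM). Ratios to other markers were not taken. Of its exon bases, 93 overlap the antisense gene 1010001N08Rik, and whether the counting used strand is not given in the sources used here.

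**Figure D2:**
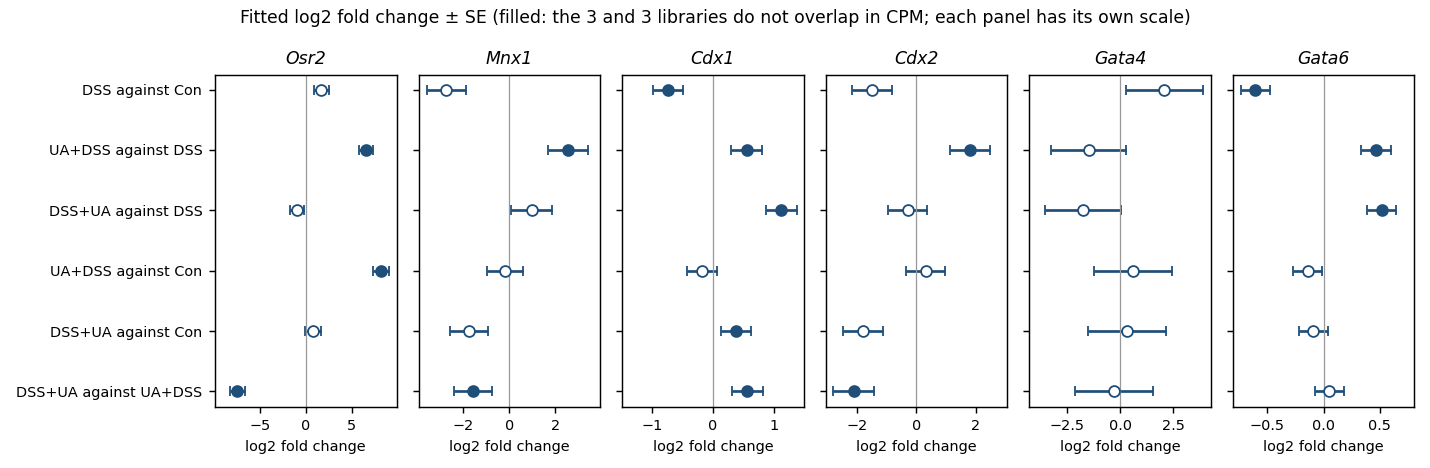
Fitted log2 fold change with its SE (horizontal axes, 1 scale per gene) of the 6 tested genes in the 6 comparisons between groups (vertical axis), filled where the 3 and 3 libraries do not overlap in CPM. Osr2 is at 6.499 and 8.17 in UA+DSS against DSS and Con, and Gata6 is within 0.61 of 0 in every comparison.

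Gata4 (ENSMUSG00000021944, 14:63198922-63271692, minus strand) followed no group. It was at 0, 1.72 and 0.642 CPM in Con, at 0.0481, 8.82 and 1.11 CPM in DSS, at 3.08, 0 and 0.532 CPM in UA+DSS and at 0.105, 0.0619 and 2.77 CPM in DSS+UA. The counts of 0 in Con 1 and UA+DSS 2 allow up to 3 counts each. All 4 groups overlapped, and no comparison was called. Without DSS 2 the log2 fold change in DSS against Con went from 2.08 (SE 1.82) to -0.44.

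Onecut2 (ENSMUSG00000045991, 18:64340020-64400987, plus strand) had more than 5 counts in 2 libraries only. It was at 7.81 CPM in DSS 2 (156 counts) and at 1.39 CPM in DSS+UA 3 (25 counts). In the other 10 libraries it was at 0 to 0.264 CPM, with no count in 4 of them. No fold change was fitted for it.

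The 2 highest libraries for Onecut2 were those with small-intestinal RNA. Of 22 genes listed for the small intestine, 17 were highest in DSS 2, and for 11 of these DSS+UA 3 came next. Over those 11 the CPM of DSS 2 was 3.16 to 6.27 times that of DSS+UA 3, with a median of 4.60. The same ratio was 5.64 for Onecut2 (95% exact interval 3.68 to 8.98, counting error only) and 3.18 for Gata4 (2.31 to 4.45). Apoa4, a lipid carrier of the enterocyte, was at 306 and 66.6 CPM in DSS 2 and DSS+UA 3 and at most 0.4998 CPM elsewhere. Creb3l3, a factor of lipid handling in small intestine and liver, was at 44.0 and 15.4 CPM there and at most 11.6 CPM elsewhere. The third Gata4 value above 2 CPM, 3.08 CPM in UA+DSS 1, came with 0.0642 CPM of Apoa1 and no count of Onecut2.

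**Figure D3:**
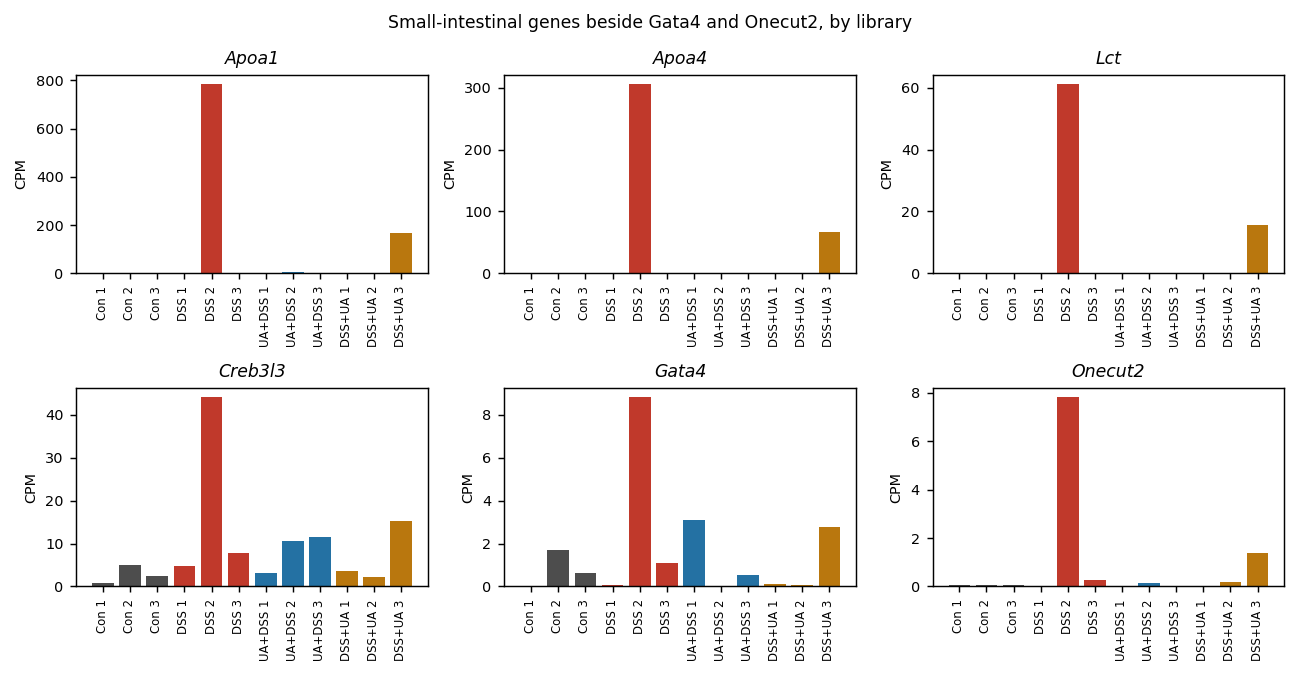
CPM (vertical axes, linear) of 4 genes of the small intestine and of Gata4 and Onecut2 in each of the 12 libraries (bars, coloured by group). DSS 2 holds the tallest bar in all 6 panels, and DSS+UA 3 the next in every panel but that of Gata4, where UA+DSS 1 reaches 3.08 CPM.

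Over the 6 comparisons, the calls among the 6 tested genes, and the genes whose groups did not overlap in CPM, stood beside those of all genes as follows. Since the genes were selected on these values, nothing is read from the counts. In DSS against Con, 3 of 6 were called, all lowered (Cdx1, Gata6 and Mnx1), beside 26.5% of all tested genes called, and 2 did not overlap, beside 41.3% of all genes. Between UA+DSS and DSS, Osr2 and Gata6 were called, both raised, beside 18.7% called, and 5 did not overlap, beside 42.8%. Between DSS+UA and DSS, Cdx1 and Gata6 were called, both raised, beside 7.54% called, and 2 did not overlap, beside 34.7%. Between UA+DSS and Con, Osr2 alone was called, beside 0.00566% called, and it alone did not overlap, beside 20.6%. In that comparison 1 of 6 had an unadjusted p under 0.05, beside 12.1% of all genes. DESeq2 called 1 of 6, beside 1.17% of the genes it tested. Between DSS+UA and Con edgeR called 0 of 6, beside 18.1% called, and 1 did not overlap, beside 38.9%. There, 1 of 6 had an unadjusted p under 0.05, beside 36.0% of all genes, and DESeq2 called 1, beside 14.2% of the genes it tested. Between DSS+UA and UA+DSS, Osr2 was called, lowered, beside 16.8% called, and 4 did not overlap, beside 45.3%. Comparisons that share a group share its 3 libraries.

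Hoxb13 (ENSMUSG00000049604, 11:96194316-96197447, plus strand) itself was at 542, 62.8 and 100.05 CPM in Con and at 216, 77.4 and 91.3 CPM in DSS. It was at 0.385, 0.0625 and 13.2 CPM in UA+DSS and at 329, 478 and 433 CPM in DSS+UA. The UA+DSS libraries lay below the 9 others. DSS 1, which held prostate RNA (Pbsn, 422 CPM), was the highest DSS library for Hoxb13, and the part of that RNA in its level was not tested.

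Across the 12 libraries Osr2 and Cdx2 had the strongest negative correlations with Hoxb13 among the 7 genes. On the log2 CPM scale (prior count 2) Pearson's r with Hoxb13 was -0.90 for Osr2 and Spearman's rho -0.64. The UA+DSS libraries formed a cluster of their own on both axes. In the 9 libraries of the other groups, r for Osr2 was -0.10, so the relation lay between UA+DSS and the rest. For Cdx2, r was -0.68 and rho -0.80 over the 12 libraries. In the 9 libraries outside UA+DSS it was -0.67, and without UA+DSS 1 and 2, the libraries farthest from the median of Hoxb13, -0.73. As deviations from the group means it was -0.40. The libraries share groups, RNA of other organs and TMM scaling, so these values describe the 12 libraries.

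**Figure D4:**
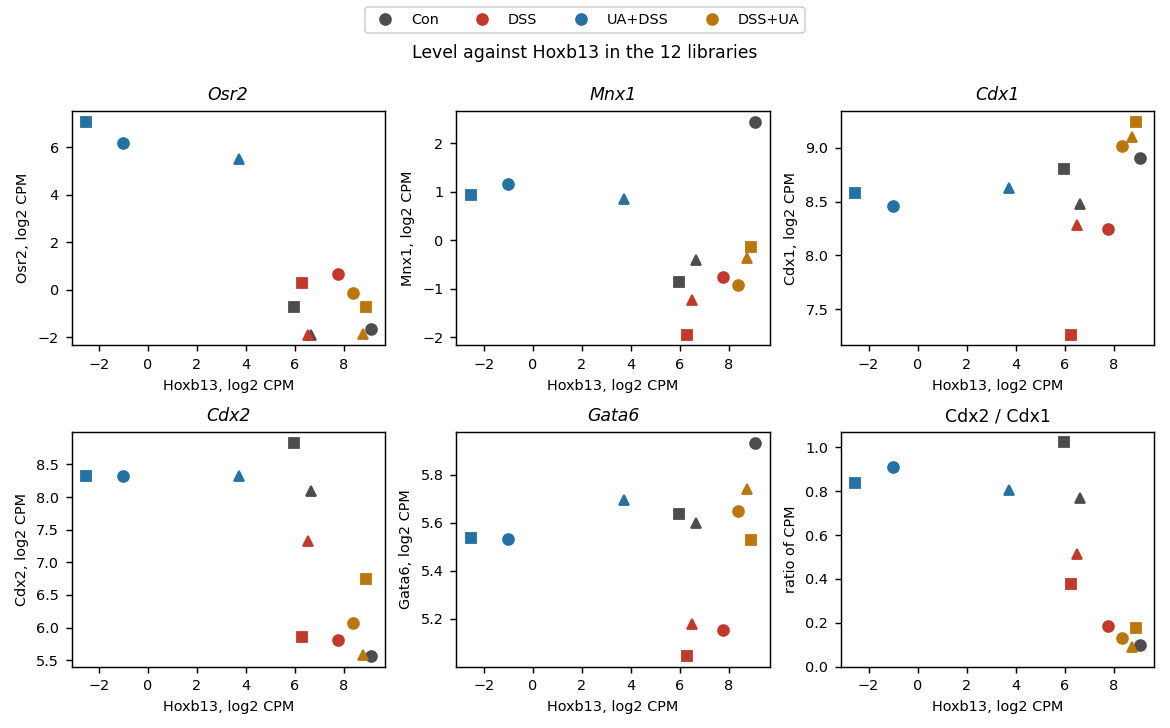
Log2 CPM of 5 genes and, in the last panel, the ratio of Cdx2 to Cdx1 in CPM (vertical axes) against log2 CPM of Hoxb13 (horizontal axes) in the 12 libraries, coloured by group, with circles, squares and triangles for replicates 1, 2 and 3. The UA+DSS libraries stand alone at the left with Osr2 at 45.0 to 135 CPM. In the Cdx2 panel Con 1 (Cdx2 at 47.3 CPM, Hoxb13 at 542 CPM) lies beyond the DSS+UA libraries, lower in Cdx2 and higher in Hoxb13 than any of them.

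For Cdx1 r with Hoxb13 was 0.23 over the 12 libraries and 0.66 in the 9 outside UA+DSS, the opposite sign to Cdx2. For Gata6 it was 0.061 and 0.55. For Mnx1 it was -0.33 over the 12 and 0.65 in the 9, the latter with Con 1, which was highest in both genes. Without Con 1 the value over the 12 libraries became -0.71 and that over the libraries outside UA+DSS 0.62 (8 libraries). Gata4 had -0.082 over the 12 libraries and -0.64 in the 9, and Onecut2 0.19 and -0.21, from counts that were mostly low.

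The genes whose log2 CPM followed each factor most closely were taken from 15409 tested genes with a mean of at least 1 CPM, as a description over 12 libraries that share groups. Osr2 was followed by Slc10a2, the bile acid importer of the ileum (r = 0.89), Chgb, a granin of endocrine cells (0.86), and Flrt3, a membrane adhesion protein (0.85). Slc10a2 was at 119, 308 and 99.2 CPM in UA+DSS and at 3.26 to 20.6 CPM elsewhere, and UA+DSS 2 was highest for Slc10a2, Chgb and Flrt3 as it was for Osr2. Cdx2 was followed by Kcnh3, a potassium channel (0.98), Abhd17b, a depalmitoylase (0.98), and B3gnt6, the core 3 glycan synthase of colonic mucin (0.97). B3gnt6 was at 1.14 CPM in Con 1 against 100.4 and 94.6 CPM in Con 2 and Con 3, at 59.0 to 70.4 CPM in UA+DSS and at 1.26 to 2.41 CPM in DSS+UA.

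Cdx1 was followed by Tecr, an enzyme of fatty acid elongation (0.98), Ptcd2 (0.98) and Pmm2, a phosphomannomutase of protein glycosylation (0.97), each lowest in DSS 2 and highest in DSS+UA 2, as Cdx1 was. Gata6 was followed by Pdik1l (0.95), Dgcr2 (0.94) and Mkks (0.93), and each of these was lower in the DSS group on average than in the other 3. Mnx1 was followed by Bbs4 (0.89), Rtn4rl1 (0.89) and Rnf43 (0.89), each highest in Con 1. Gata4 was followed by Ppp1r15b (0.87), Cmtm6 (0.87) and Rdh11 (0.80), each highest in DSS 2.

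Beside the 7 genes, 52 other transcription factors of the gut were read, 25 of the epithelium and 27 of the mesenchyme, of which 47 were tested. In DSS against Con, 10 of 23 tested epithelial factors fell, at a list median log2 fold change of -0.81 against -0.034 for all genes, while 5 of 24 mesenchymal factors rose and 1 fell (list median 0.45). Of all genes, 13.9% rose and 12.6% fell there. From DSS to UA+DSS, 9 of 23 epithelial factors rose (list median 0.61, all genes -0.019), and 6 of 24 mesenchymal factors fell (list median -0.51), beside 8.21% of all genes that rose and 10.5% that fell. From DSS to DSS+UA, 1 epithelial factor rose (list median 0.62) and 7 mesenchymal factors fell (list median -0.92), beside 2.54% and 5.001% of all genes. These counts varied with single libraries. The 15 calls between UA+DSS and DSS became 3 without UA+DSS 2, 8 without DSS 1 and 9 without UA+DSS 1 or UA+DSS 3. The 8 between DSS+UA and DSS became 0 without DSS+UA 3, 2 without DSS+UA 2, 4 without DSS 2, 5 without UA+DSS 3 and 15 without DSS 3. Markers of cell types moved as well, but not all in the direction of these lists. Fibroblast markers rose in DSS against Con (5 of 6) and fell in UA+DSS against DSS (4 of 6). Smooth muscle markers went the other way, with list medians of -0.998 and 0.892 in these comparisons and none (0) called. Leukocyte markers summed to 30.7 to 64.9 CPM in Con, 212 to 1874 in DSS, 56.9 to 113 in UA+DSS and 135 to 176 in DSS+UA, with 6 of 7 raised in DSS against Con and 6 of 7 lowered in UA+DSS against DSS. Epithelial markers had fold changes below 0 in 8 of 8 in DSS against Con (1 called) and above 0 in 8 of 8 in UA+DSS and in DSS+UA against DSS (2 called in each). The part of these cell types in the changes of the factors was not tested.

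Between UA+DSS and Con edgeR called 0 of these 47 factors, with 7 at an unadjusted p under 0.05 (12.1% of all genes) and 3 called by DESeq2 (1.17% of the genes it tested). From Con to DSS+UA, 2 epithelial and 2 mesenchymal factors fell (4 calls, 7 without Con 1 and 8 without DSS 2), beside 8.95% of all genes. From UA+DSS to DSS+UA, 4 epithelial and 3 mesenchymal factors fell (7 calls, 11 without Con 1, 2 without UA+DSS 2, 4 without UA+DSS 3 and 3 without any 1 DSS+UA library), beside 7.54% of all genes. With Hoxb13 as a covariate edgeR called none (0) of these between UA+DSS and DSS, and 0 in DSS+UA against UA+DSS, where over all 17658 genes it also called 0 (1481 and 373 at an unadjusted p under 0.05). Hoxb13 was lower in every UA+DSS library than in any library of the other groups. In comparisons with UA+DSS the fit thus cannot part the group from Hoxb13. In DSS against Con 4148 genes were called with the covariate and 4688 without it.

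The ranges of adjusted p given below leave out the fit with Hoxb13 as a covariate, where the adjusted p of each named factor was 0.590 in UA+DSS against DSS and 0.9996 in DSS+UA against UA+DSS. Tcf7l2, the Wnt effector of the crypt, fell from 66.5 ± 18.3 CPM in Con to 28.5 ± 1.51 CPM in DSS (SD, n = 3; log2 fold change -1.22, SE 0.19, edgeR adjusted p = 0.00276). Nr5a2, a nuclear receptor of the crypt, rose from 20.5 ± 11.1 CPM in DSS to 77.5 ± 15.0 CPM in UA+DSS (1.92, SE 0.34, edgeR adjusted p = 0.00998, up to 0.0533 over the alternatives). Prox1 was lower in DSS+UA than in UA+DSS (1.97 ± 0.604 against 5.58 ± 1.17 CPM, log2 fold change -1.50, SE 0.35, edgeR adjusted p = 0.0178, up to 0.0758 over the alternatives).

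Among the mesenchymal factors, Prrx1 was 0.409 ± 0.0998 CPM in Con and 2.99 ± 0.652 CPM in DSS (log2 fold change 2.85, SE 0.39, edgeR adjusted p = 0.00201). It fell in UA+DSS (-2.51, SE 0.39, edgeR adjusted p = 0.00800) and in DSS+UA (-2.39, SE 0.38, edgeR adjusted p = 0.0126, up to 0.0888 over the alternatives) against DSS. Foxf1, the forkhead factor of gut mesenchyme, was 58.3 ± 4.00 CPM in DSS, 26.6 ± 3.39 in UA+DSS and 30.6 ± 2.50 in DSS+UA (edgeR adjusted p = 0.00725 and 0.0146, up to 0.0390 and 0.133 over the alternatives). Nkx2-3, a homeodomain factor of gut mesenchyme and vessels, fell from 34.2 ± 3.09 CPM in DSS to 18.2 ± 1.56 CPM in DSS+UA (edgeR adjusted p = 0.0147, up to 0.168 over the alternatives). Nr2f1 rose in DSS against Con (2.42, SE 0.41, edgeR adjusted p = 0.00346).

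Gli1, the hedgehog target factor, was 3.90 ± 0.435 CPM in DSS+UA against 9.25 ± 2.64 CPM in Con (log2 fold change -1.24, SE 0.27, edgeR adjusted p = 0.0126). Tbx3, a T-box factor, was 34.3, 45.5 and 20.7 CPM in UA+DSS, compared with 8.64, 5.01 and 6.93 CPM in DSS+UA (-2.28, SE 0.38, edgeR adjusted p = 0.00770). With Hoxb13 as a covariate the difference was -0.64, from a fit that cannot part the UA+DSS group from its low Hoxb13.

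Beside Cdx2, 15 genes known as its targets were read. Their summed level was 4467, 17313 and 12725 CPM in Con 1, 2 and 3 and 2351 to 7285 CPM in DSS. It was 14961 to 19741 CPM in UA+DSS, compared with 4996 to 6917 CPM in DSS+UA. Con 1, DSS and DSS+UA thus lay low for the sum as for Cdx2 itself. Muc2 and Car1 weighed most in the high sums (6633 and 3796 CPM in Con 2, 4384 and 9357 CPM in UA+DSS 2). The order of the sums therefore need not hold for each of the 15 genes. Of 14 tested targets, 6 rose from DSS to UA+DSS (list median log2 fold change 1.14, all genes -0.019), 2 fell in DSS against Con, and 1 fell in DSS+UA against UA+DSS. The shares of all genes in those directions were 8.21%, 12.6% and 7.54%.

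Gucy2c, the guanylin receptor, was 362.5 ± 39.9 CPM in UA+DSS, compared with 140.1 ± 65.0 CPM in DSS (1.37, SE 0.32, edgeR adjusted p = 0.0185, up to 0.0798 over the alternatives). Vil1, the microvillus protein villin, was 715 ± 40.0 and 357 ± 83.8 CPM there (1.00, SE 0.25, edgeR adjusted p = 0.0222, up to 0.0994). Car1, a carbonic anhydrase of the colonocyte, was 759 ± 104 CPM in DSS+UA and 6827 ± 2392 CPM in UA+DSS (-3.17, SE 0.75, edgeR adjusted p = 0.0198, up to 0.0716). Its log2 fold change was -1.02 with Hoxb13 as a covariate, from a fit that cannot part the UA+DSS group from its low Hoxb13. Isx, an intestine-specific homeobox gene that regulates vitamin A uptake, was at 0.362 CPM in Con 1 against 80.8 and 46.0 CPM in Con 2 and Con 3, and at 132 to 169.8 CPM in UA+DSS; it was named after its values were seen. The target list shares 3 genes (Cdh17, Krt20 and Vil1) with the 8 epithelial markers, which had fold changes above 0 in 8 of 8 between UA+DSS and DSS, 2 of them called, and their part in the level of the targets was not tested. It also shares Hnf4a and Isx with the epithelial factors, so these lists are not separate readings. Sis and Lct are on the small-intestinal list too, and were at 143 and 61.3 CPM in DSS 2, the library with small-intestinal RNA.

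Genes outside the transcription factors that are known from one end of the colon were read last, 7 for each end. The proximal list shares Slc10a2 and Fabp6 with the small-intestinal list, so those lists are not separate readings. Cyp2c55, a cytochrome P450 of the caecum and first part of the colon, was 2060 ± 969 CPM in UA+DSS, compared with 15.8 ± 6.48 CPM in DSS+UA (log2 fold change -7.03, SE 1.35, edgeR adjusted p = 0.0107, at most 0.0471 over the alternatives), and 307 CPM in Con 1 against 2784 and 1458 CPM in Con 2 and Con 3. Nts, the peptide neurotensin, was 45.8 ± 29.1 CPM in UA+DSS, compared with 0.321 ± 0.117 CPM in DSS+UA (-7.13, SE 1.52, edgeR adjusted p = 0.0147, up to 0.0596 over the alternatives). Insl5, a peptide hormone of the rectal end, was 10.6 ± 9.66 CPM in UA+DSS, compared with 114 ± 10.5 CPM in DSS+UA (3.42, SE 0.82, edgeR adjusted p = 0.0217, up to 0.0744), and Atp12a, a proton pump, 2.87 ± 1.67 and 222 ± 159 CPM (6.26, SE 1.45, edgeR adjusted p = 0.0192, up to 0.0869). With Hoxb13 as a covariate the log2 fold changes of Insl5 and Atp12a were -0.16 and -0.39. That fit cannot part the UA+DSS group from its low Hoxb13, so nothing is read from these values. From UA+DSS to DSS+UA, 3 of the 7 proximal genes fell, beside 7.54% of all genes, and 3 had fold changes above 0, none (0) of them called. Of the 7 distal genes 2 rose, beside 9.23% of all genes, and 3 had fold changes below 0, none (0) of them called. Nr3c2, the mineralocorticoid receptor of the distal list, fell from 108 ± 11.1 CPM in Con to 36.0 ± 16.7 CPM in DSS (-1.58, SE 0.31, edgeR adjusted p = 0.00608).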

How the data were processed

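The samples were colon RNA of 12 mice in 4 groups of 3, grouped by the sample titles. Per the labels the libraries were made from total RNA with a TruSeq kit. The authors checked the reads with FastQC and mapped them to GRCm38 with HISAT2, and Cuffdiff is also named in the submitters' processing notes. Each deposited file gives raw read counts per Ensembl gene, as made by the authors and not normalized. The sources used here do not name versions, the annotation release or the use of strand. For RNA extraction the labels name Trizol and the methods another kit.

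edgeR 4.0.16 in R 4.3.3 tested 17658 of 54532 genes by filterByExpr (99.8% of counts), scaled the rest by TMM and used 1 model of all 12 libraries with robust quasi-likelihood dispersions, tested on simulated data. p-values were adjusted by the Benjamini-Hochberg method with a threshold of 0.05. SE is the log2 fold change divided by the root of F. Genes were placed on GRCm38 with GENCODE M21, and 123 genes in the files had no name there. Total counts were 15566216 to 19498383 per library, and intervals cover counting error only. No pair of libraries in a group agreed within sampling noise (chi-square per degree of freedom at least 20.9).

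The 7 genes and all gene lists were chosen with earlier results of these data known. Named genes are the 7, Hoxb13, the 3 genes most like each, up to 4 called gut factors per comparison and 3 genes per other list by smallest p. Predicted genes and Hox genes were passed over among the most similar genes. Isx and markers beyond these were named after their values were seen, the markers where a library stood apart. Prac1 was not matched. Some items that this rule names are not reported here. The alternatives were RLE factors, library size only, no filter, DESeq2 1.42.0, a 2-group fit, the replicate number as a block, Hoxb13 as a covariate and leaving out each library, and, chosen after seeing the data, leaving out DSS 2 and DSS+UA 3 together. Summaries used Python 3.11.15, numpy 2.4.6, scipy 1.17.1 and pandas 2.3.3.

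The p-values measure only the spread between these samples.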

Additional observations from a re-analysis of the deposited data

How the results depend on the processing

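Counts of called gut factors (of 52 listed) varied with the setting. Direction was kept in every called value of the 6 tested regional factors. In DSS against Con 16 were called, 10 in a fit of the 2 groups alone and 11 to 21 without single libraries. In UA+DSS against DSS 15 became 0 with Hoxb13 as a covariate, 9 without DSS 2 and DSS+UA 3 together, and 3 to 21 without single libraries (3 without UA+DSS 2, 21 without Con 1). In DSS+UA against DSS 8 became 3 with the covariate, 5 in the 2-group fit, 15 by DESeq2, 0 without DSS 2 and DSS+UA 3 together and 0 to 15 without single libraries (0 without DSS+UA 3, 15 without DSS 3). In UA+DSS against Con 0 became 3 by DESeq2. In DSS+UA against Con 4 became 7 in the 2-group fit and 3 to 8 without single libraries (8 without DSS 2). In DSS+UA against UA+DSS 7 became 0 with the covariate, 14 in the 2-group fit, 11 by DESeq2 and 2 to 11 without single libraries (2 without UA+DSS 2, 11 without Con 1). The cause of these shifts was not tested. The replicate numbers did not pair the samples (6 of 18 same-number pairs over 0.1, from -0.22 to 0.20, with 4 of 12 libraries closest to their own number), and with the replicate block the 6 counts were 18, 15, 6, 0, 5 and 8. Of 715 log2 fold changes of the 6 tested regional factors under the alternatives, 672 stayed within 1 SE. The sign changed in 27, 15 of them of Gata4, and in 0 of the called ones. Calls that were lost in most alternatives were those of Cdx1 and Mnx1 in DSS against Con (16 of 20 and 12 of 19) and of Gata6 in UA+DSS and in DSS+UA against DSS (13 and 16 of 20). Of 112 correlations with Hoxb13, most of them with 1 library left out, 91 stayed within 0.1. Taken as deviations from the group means, r moved from -0.90 to -0.35 for Osr2 and from 0.061 to 0.65 for Gata6. There the sign changed for Mnx1 (-0.33 to 0.44) and Onecut2 (0.19 to -0.23), while Cdx1 moved little (0.23 to 0.27). With 3 libraries a group and counts under 10 for Mnx1, Gata4, Osr2 and Onecut2 in many libraries, depth limits the low values.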
